A study of Mus musculus with 24 samples.

Results

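The cells described here are lymphoid-primed multipotent progenitors (LMPP) of mouse bone marrow that do not yet show the Rag2 reporter, with and without the transcription factor gene Tal1. They were chosen by label, as bone marrow CD135+ LSK cells (without lineage markers, and with Sca1 and Kit) that were negative for Rag2-GFP. This gave 6 of the 24 libraries of the series, 3 in each genotype. Ctrl animals were Tal1 F/F with no Cre named, called wild type in the labels, and KO animals were VaviCre Tal1 F/F; both carried the Rag2GFP reporter. Vav-iCre acts in blood cells at large, so Tal1 may also have been lost in the other blood cells of a KO animal. The labels give no age or sex, and neither the floxed part of Tal1 nor the animal behind each replicate. The p-values below therefore describe variation among these particular libraries, some of which may be technical. RNA of each sorted population was sequenced in bulk, and the values are the authors' normalised counts, written here as counts. In bulk RNA, fewer cells of a type and less RNA per cell cannot be told apart.

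TAL1 is a basic helix-loop-helix factor that pairs with E proteins, binds DNA letters of the form CANNTG, and works in a complex with LMO2, LDB1 and GATA factors. It is needed for blood formation in the embryo and for red cell and megakaryocyte development in the adult. LMPP are progenitors that keep lymphoid and myeloid potential, have lost most megakaryocyte and erythroid potential, and express low levels of genes of several lineages at once, which is called priming. Rag2 encodes part of the recombinase that rearranges antigen receptor genes, so its reporter marks cells that have taken an early lymphoid step.

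The 6 libraries had totals between 6939316 and 8866404 counts, and each listed between 15215 and 15892 genes above 1 count. Mitochondrially encoded genes held 21.74 to 37.71% of the counts, and KO replicate 2 was the highest. Depth in reads is unknown, and between 0 and 1331 genes were at an exact 0 per library, so values under 1 are read here only as near 0. Xist was between 63424 and 76341 counts in replicates 1 and 2 of both genotypes and under 63 counts in replicate 3 of both, where Eif2s3y was 146 (KO) and 349 (Ctrl). Replicate 3 was thus male and replicates 1 and 2 female in both genotypes. Transcripts of the sort's marker genes Flt3 (which encodes CD135), Kit and Ly6a (Sca1) were present in all 6 libraries. Cd34, which is not among the sort markers given above, was also present in all 6. Flt3 lay between 3623 and 4813 counts, above the 177 to 1033 counts of the CD135-negative, GFP-negative libraries.

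Tal1 transcript was lower in KO cells but still present. The gene (ENSMUSG00000028717, chr4:115056426-115071755, plus strand, GRCm38) gave 329, 335 and 253 counts in KO replicates 1, 2 and 3. In Ctrl replicates 1, 2 and 3 it gave 667, 984 and 684 counts. Every KO library lay below every Ctrl library. The difference was -1.32 ± 0.70 on the log2 scale (SE; n = 3 in each group). The exact two-sided permutation test gave p = 0.1, the smallest that 3 against 3 samples allow, and the limma model over all 24 libraries gave an adjusted p of 1. In a model on the 6 libraries alone the adjusted p for Tal1 was 0.0352. Because the floxed part is not stated, reads from exons outside it would not report the deletion. Rag2 checks the reporter gate: it was 45.3, 103 and 54.5 counts in KO and 88, 167 and 60.2 in Ctrl, which overlap (log2 difference -0.57, exact permutation p = 0.4, n = 3). In the GFP-positive LMPP libraries Rag2 lay between 1072 and 2593 counts.

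Of 16215 genes tested, 9 passed at an adjusted p under 0.05 (limma, Benjamini-Hochberg), which is 0.0555%. Of these, 4 were higher in KO (0.0247% of genes tested) and 5 were lower (0.0308%). Some of them belong to 3 lineages: 2 granule genes of the myeloid lineage fell (Mpo and Ctsg), 2 globin genes rose (Hbb-bs and Hba-a1), and 1 mast cell protease rose (Mcpt4). Atp8b4 and the RNA gene Gm11505 also fell, and the RNA gene Gm20429 rose. At an unadjusted p under 0.05 there were 402 genes (2.48%), 238 higher (1.47%) and 164 lower (1.01%). The libraries of the genotypes did not overlap in 1754 genes, which is 10.8% of those tested: 873 with KO higher (5.38%) and 881 with KO lower (5.43%). The median log2 difference over all genes was -0.01, and 49.2% of genes lay above 0. Below, a gene is said to rise or fall only where it passed. Where libraries are said not to overlap, the share for all genes in that direction is the one just given. For 3 against 3 libraries, full separation in either direction corresponds to an exact two-sided permutation p of 0.1. The 10.8% is close to that rate, so non-overlap of a single gene is weak evidence.

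**Figure D1:**
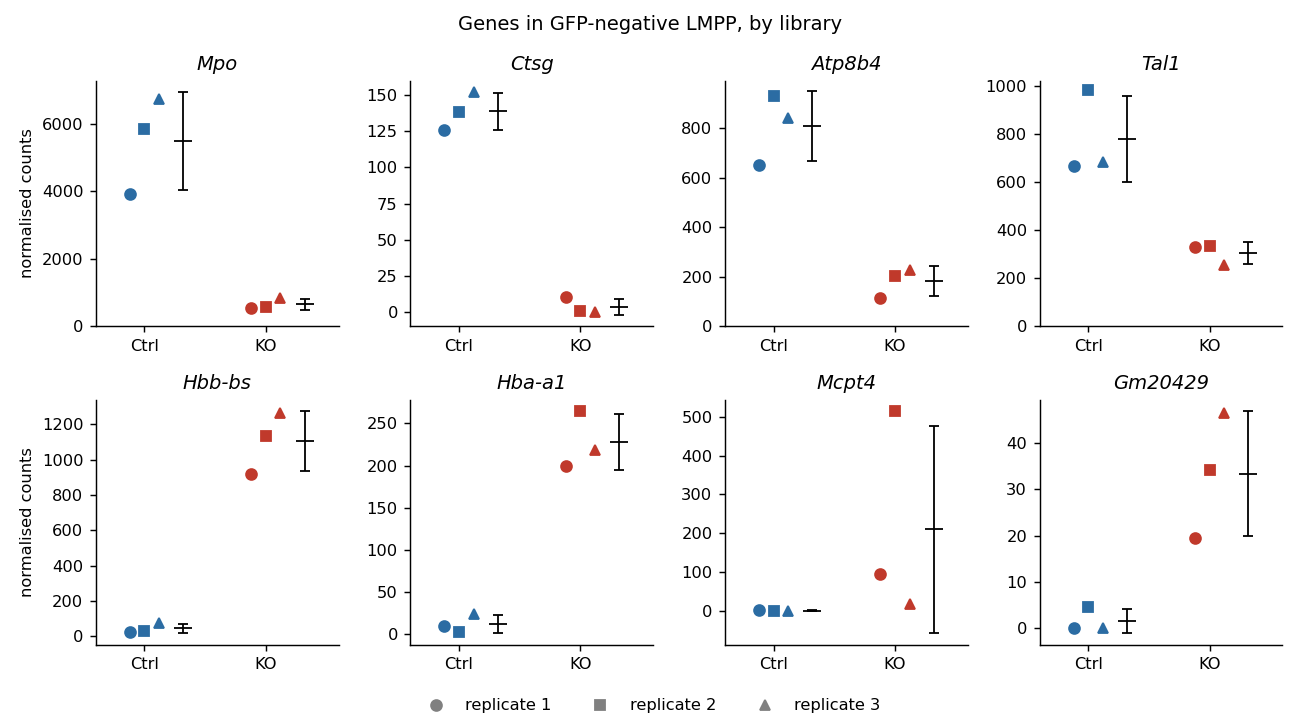
Normalised counts (vertical axis, linear, a scale for each panel) of 7 genes that passed and of Tal1 in the Ctrl (blue) and KO (red) libraries of GFP-negative LMPP; marker shapes give the replicate, and bars are the mean and SD of 3 libraries. Mpo, Ctsg, Atp8b4 and Tal1 are lower in every KO library than in any Ctrl library, and Hbb-bs, Hba-a1, Mcpt4 and Gm20429 are higher, with Mcpt4 spread from 17.8 to 516 counts.

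To show what lies before the protein-coding granule, globin and mast cell genes that passed, the 250 bases upstream of the RefSeq transcript start (GRCm38.p6) are printed for these 5 genes. They are written 5′ to 3′ on the gene's strand, in lower case. Capitals mark each match to CANNTG, the E box letters, and to GATAA, the core of GATA factor letters, on either strand. The stretches are, in order, chr11:87793534-87793783 (plus strand), chr14:56102575-56102824 (minus), chr14:56062311-56062560 (minus), chr7:103827929-103828178 (minus) and chr11:32283422-32283671 (plus).
Mpo: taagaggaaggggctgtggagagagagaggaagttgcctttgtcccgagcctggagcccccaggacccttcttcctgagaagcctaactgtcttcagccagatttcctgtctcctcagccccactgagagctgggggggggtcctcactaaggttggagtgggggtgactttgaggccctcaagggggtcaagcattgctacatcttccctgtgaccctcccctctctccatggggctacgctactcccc
Ctsg: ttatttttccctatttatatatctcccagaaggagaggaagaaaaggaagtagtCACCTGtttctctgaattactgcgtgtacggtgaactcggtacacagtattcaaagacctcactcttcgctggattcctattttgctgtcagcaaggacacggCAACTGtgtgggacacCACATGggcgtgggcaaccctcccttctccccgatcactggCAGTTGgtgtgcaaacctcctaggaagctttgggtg
Mcpt4: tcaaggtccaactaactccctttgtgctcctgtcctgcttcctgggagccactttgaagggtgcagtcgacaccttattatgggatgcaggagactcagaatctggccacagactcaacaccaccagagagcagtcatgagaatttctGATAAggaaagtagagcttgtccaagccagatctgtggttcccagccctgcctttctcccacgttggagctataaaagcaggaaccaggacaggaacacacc
Hbb-bs: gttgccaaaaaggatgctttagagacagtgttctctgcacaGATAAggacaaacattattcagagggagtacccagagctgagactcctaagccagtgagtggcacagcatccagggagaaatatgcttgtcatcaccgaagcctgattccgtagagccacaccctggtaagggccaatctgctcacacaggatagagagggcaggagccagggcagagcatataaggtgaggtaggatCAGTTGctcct
Hba-a1: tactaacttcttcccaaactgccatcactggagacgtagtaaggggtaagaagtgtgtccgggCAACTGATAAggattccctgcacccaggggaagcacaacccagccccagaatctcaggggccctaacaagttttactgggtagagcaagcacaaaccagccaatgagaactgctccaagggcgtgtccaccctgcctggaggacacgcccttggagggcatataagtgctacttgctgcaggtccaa

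CANNTG has the same form on both strands. In these windows it matched 4 times before Ctsg, 1 time before each globin gene and 0 times before Mpo and Mcpt4. On either strand, GATAA matched 1 time before Hbb-bs, Hba-a1 and Mcpt4 and 0 times before Mpo and Ctsg. In Hba-a1 the match to CANNTG and the match to GATAA share 1 base. Over all 32851 promoters of the table, cut to the same 250 bases, 66.2% held CANNTG and 22.6% held GATAA on either strand. The narrower E box letters CAGCTG were held by 13% of promoters and occurred in none of the 5 windows printed, nor did CAGATG on either strand, which 14.4% held. The same window before Atp8b4, which also passed and is not printed, held 2 matches to CANNTG, 1 of them CAGATG. It held 0 matches to GATAA and 0 to CAGCTG. A match is a description of the letters and not a site, and windows without a match say nothing about distant elements.

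Mpo, the myeloperoxidase of neutrophil and monocyte granules (ENSMUSG00000009350, chr11:87793581-87804413, plus strand), was 531, 572 and 838 counts in KO replicates 1, 2 and 3. In Ctrl it was 3910, 5862 and 6747 counts. The genotypes did not overlap, and the Ctrl mean of 5506 ± 1452 (SD, n = 3) was 8.51 times the KO mean of 647 ± 167. The log2 difference was -3.07 ± 0.49 (SE) with an adjusted p of 0.00723 (limma). Gm11505, an antisense RNA gene within Mpo (chr11:87795784-87801144, minus strand), fell with it, from 1885, 2628 and 2687 counts in Ctrl to 286, 285 and 376 in KO (log2 difference -2.90 ± 0.51, adjusted p = 0.0205). No source used here says whether the counting used strand, so reads of the 2 genes cannot be told apart and they count as 1 finding.

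Ctsg encodes cathepsin G, a serine protease stored in the same granules (ENSMUSG00000040314, chr14:56099881-56102574, minus strand). It was 126, 138 and 152 counts in Ctrl, a narrow range, and 10.2, 0.67 and 0.248 in KO. Transcript was thus near 0 in KO replicates 2 and 3 and low in replicate 1. The log2 difference was -4.42 ± 0.82, with an adjusted p of 0.0253 (limma). The other primary granule proteases did not pass: Prtn3 (proteinase 3) was 329, 274 and 89.5 counts in KO against 691, 536 and 420 in Ctrl, without overlap (-1.40, adjusted p = 1). Elane (neutrophil elastase) was 51.6, 54.5 and 19.4 counts in KO against 5.38, 3.3 and 35.9 in Ctrl, which overlap (1.59, adjusted p = 1). Over the 22 neutrophil granule genes tested, 2 fell, 0 rose, 3 lay lower without overlap and 0 lay higher without overlap. Their median difference was 0.22 log2 against -0.01 for all genes. The late granule and alarmin transcripts that mark mature neutrophils (S100a8, S100a9, Camp, Ngp and Ltf) summed to 740 to 1899 counts in KO and 239 to 1801 in Ctrl, which overlap.

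Beyond the granules, genes of myeloid receptors and regulators tended to lie lower in KO, although none of them passed. Of 22 genes tested on the list of myeloid receptors and related genes, 19 lay below 0 and 3 above, 9 lay lower without overlap and 0 higher, and the median was -0.61 log2. At an unadjusted p under 0.05 (limma), 6 were lower and 0 higher. In the 3 KO libraries taken singly the list's median lay at -0.62, -0.57 and -0.67, and in Ctrl at -0.09, 0.09 and -0.18, each against the Ctrl mean. Csf1r, the receptor of the macrophage growth factor M-CSF, was 8.92, 65.2 and 46.5 counts in KO against 221, 279 and 104 in Ctrl (log2 difference -2.41, adjusted p = 0.922). Csf3r, the receptor of the granulocyte growth factor G-CSF, was 961, 982 and 927 in KO against 1684, 1514 and 1606 in Ctrl (-0.74, adjusted p = 1). Neither gene's genotypes overlapped, and in Csf3r the 3 libraries of a group lay within a narrow range. Il6ra, the interleukin 6 receptor, Cd33, a sialic acid binding receptor, Emb, a cell adhesion protein, and F13a1, the A chain of factor XIII in monocytes, also lay lower without overlap (-1.38, -1.40, -0.83 and -2.07). Each of these 4 had an adjusted p of 1. On the 6 libraries alone Cd33 passed (limma), and it passed in none of the fits that left out 1 library.

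Among 18 myeloid transcription factors, 12 lay below 0, with a median of -0.35, and 0 passed. Irf8, which directs monocyte and dendritic cell fate, was 26.5, 60.6 and 89.5 counts in KO against 214, 350 and 402 in Ctrl. The genotypes did not overlap, and the difference of -2.47 ± 0.66 had an adjusted p of 0.531 (limma). On the 6 libraries alone Irf8 had an adjusted p of 0.0335 (limma), and it passed in none of the fits that left out 1 library. Spi1, encoding PU.1, and Cebpa, encoding C/EBP alpha, overlapped between genotypes, with differences of -0.32 and -0.58. Of 19 dendritic cell and antigen presentation genes, Irf8, Clec9a and Itgax lay lower without overlap and 4 lay higher without overlap, H2-Eb1 and H2-Ab1 of MHC class II among them (1.47 and 0.55). No gene of that list passed. Summed markers of macrophages were 13.4 to 79.8 counts in KO and 15.6 to 148 in Ctrl, which overlap.

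Atp8b4, a membrane lipid flippase of the P4 type (ENSMUSG00000060131, chr2:126320973-126500674, minus strand), was 112, 201 and 228 counts in KO against 652, 929 and 839 in Ctrl. The genotypes did not overlap, the Ctrl mean of 807 ± 141 (SD, n = 3) was 4.47 times the KO mean of 180 ± 60.8, and the log2 difference was -2.18 ± 0.35 (adjusted p = 0.00723).

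Of 24 lymphoid priming genes tested, 7 lay above 0 and 17 below, and the median was -0.17. Dntt, terminal transferase, which adds bases at antigen receptor junctions, was 1501, 803 and 1349 counts in KO against 1978, 3112 and 2505 in Ctrl (-1.08, adjusted p = 1). Rag1, the partner of Rag2, had the opposite sign, with 76.6, 119 and 19.4 counts in KO against 13.3, 20.1 and 8.35 in Ctrl (1.83, adjusted p = 1). Dntt did not overlap between genotypes, while KO replicate 3 of Rag1 lay within the Ctrl range. Flt3 differed by -0.27 without overlap, and Il7r, the interleukin 7 receptor, by 0.69 with overlap at 2.76 to 27.5 counts. Of the B lineage (13 genes) and the T and NK lineage (17 genes), 0 genes passed and the medians were -0.11 and 0.20.

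Cdk6, a G1 cyclin-dependent kinase of progenitor cells, was 2031, 2412 and 2505 counts in KO against 4000, 5642 and 5467 in Ctrl. The groups did not overlap, and the difference of -1.11 ± 0.23 had an adjusted p of 0.0844 (limma). With the sex of the library as a covariate, added after seeing the data, Cdk6 passed (adjusted p = 0.0465); over all settings its limma adjusted p ran from 0.000103 to 0.516. Of 40 cell cycle genes, 34 lay below 0 and 6 above, with a median of -0.27, and 0 passed; 2 were lower at an unadjusted p under 0.05 (limma) and 0 higher. The list's median by KO library was -0.33, -0.73 and 0.30, so replicate 3 lay on the other side of 0. Without KO replicate 2 the median was -0.03, with 22 genes below 0 and 18 above. Without Ctrl replicate 2 it was -0.14, and without KO replicate 3 it was -0.53.

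Of 4 adult globin genes, 2 rose in KO and 2 lay higher without passing. Hbb-bs, a beta globin gene (ENSMUSG00000052305, chr7:103826534-103828096, minus strand), was 922, 1134 and 1262 counts in KO against 25.1, 32.8 and 76.6 in Ctrl. The KO mean of 1106 ± 172 was 24.7 times the Ctrl mean of 44.8 ± 27.8 (SD, n = 3), and the log2 difference was 4.64 ± 0.84 (adjusted p = 0.0226, limma). Hba-a1, an alpha globin gene (ENSMUSG00000069919, chr11:32283511-32284465, plus strand), was 200, 265 and 218 counts in KO against 9.33, 2.7 and 24.1 in Ctrl (log2 difference 4.07 ± 0.73, adjusted p = 0.0205). Both genes were far apart between genotypes, and Ctrl replicate 3 was the highest Ctrl library for each. The near-identical gene copies Hba-a2 (4.14, adjusted p = 0.0756) and Hbb-bt (3.60, adjusted p = 0.0844) did not overlap either; reads may have been split between such copies, so the values of single globin genes are uncertain.

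Around the globins, genes of the red cell membrane and its skeleton lay higher. Slc4a1, the band 3 anion exchanger, was 286, 455 and 326 counts in KO against 13.3, 7.91 and 62.8 in Ctrl (3.87, adjusted p = 0.0978). Sptb, encoding beta spectrin, was 225, 90.8 and 32.1 in KO against 1.45, 0 and 21.5 in Ctrl (3.47, adjusted p = 0.531), and KO replicate 3 came close to Ctrl replicate 3. Over the 24 mature red cell genes tested, 2 rose, 0 fell, 12 lay higher without overlap, 0 lower, and 21 lay above 0; the median was 2.04 against -0.01 for all genes. The list's median by library was 1.74, 2.54 and 1.92 in KO and -0.21, -0.27 and 0.60 in Ctrl, so Ctrl replicate 3 stood above the other Ctrl libraries.

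None of the regulators of the red cell programme passed. Of 14 erythroid and megakaryocyte transcription factors 0 passed, 2 lay higher and 0 lower without overlap, and the median was 0.09. The 2 were Gata2 (1.10) and Sox6, with 47.8, 102 and 27.4 counts in KO against 15.9, 12.5 and 16.9 in Ctrl (1.55). Klf1, the factor that activates adult beta globin, was 11.4, 19.9 and 0.233 counts in KO against 10.6, 4.42 and 12.3 in Ctrl, which overlap. Gata1 was 7.67, 44.6 and 0.237 in KO against 0.125, 7.9 and 0 in Ctrl. KO replicate 3, which held the most Hbb-bs transcript, was thus near 0 for both factors. Of 16 haem synthesis and iron uptake genes 0 passed, with a median of -0.01, and Alas2, the first enzyme of haem synthesis in red cells, was 61.6, 138 and 279 in KO against 73.4, 9.63 and 41.2 in Ctrl (1.92, adjusted p = 1, with overlap). Of 20 early erythroid progenitor genes 0 passed, 4 lay higher and 1 lower without overlap, and the median was 0.54. Epor, the erythropoietin receptor, was 8.91, 28.4 and 56.9 counts in KO against 0.122, 3.26 and 0 in Ctrl (2.55, adjusted p = 1), whereas Car1, the red cell carbonic anhydrase, overlapped (-1.04).

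The 8 marker genes of mature red cells summed to 2286 to 3155 counts in KO and 99.2 to 308 in Ctrl, and none was under 1 count in all 6 libraries. The genes that rose are markers of that cell type themselves, and the part of mature red cells carried into the sort was not tested. Summed platelet and megakaryocyte markers (Pf4, Ppbp, Gp9 and Itga2b) were also higher, at 133 to 163 counts in KO against 40.5 to 114 in Ctrl, and their part was not tested. Pf4, a chemokine of platelet granules, was 19, 24.5 and 87.4 in KO against 1.45, 0.395 and 8.35 in Ctrl (2.53, adjusted p = 0.706). The wider list of 21 megakaryocyte and platelet genes had a median of 0.02, with 3 genes higher and 3 lower without overlap and 0 passing, and F5, coagulation factor V, was among the lower ones (-2.75).

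Mcpt4, a chymase of connective tissue mast cells (ENSMUSG00000061068, chr14:56059629-56062313, minus strand), rose from 0.128, 0 and 0 counts in Ctrl to 94.2, 516 and 17.8 in KO. The log2 difference was 4.65 ± 0.89 (SE, on the log2 scale with 4.1 counts added) with an adjusted p of 0.0362 (limma). Its level was near 0 in all 3 Ctrl libraries and spread widely in KO, with replicate 2 highest and replicate 3 lowest. Cpa3, the carboxypeptidase of mast cell granules, was 275, 1624 and 8.23 counts in KO against 0.13, 3.3 and 2.48 in Ctrl (4.91 ± 1.03, adjusted p = 0.0823; 0.0465 with sex as a covariate, and 3.95e-05 to 0.725 over all settings). Cma1, another chymase, was 64.2, 497 and 0.245 in KO and near 0 in Ctrl, with 0.129, 0 and 0 (3.68, adjusted p = 0.868). Tpsb2, a tryptase, was 89.2, 282 and 0.244 against 0.128, 0 and 0 (3.56, adjusted p = 1). All 4 genes were highest in KO replicate 2, and Cma1 and Tpsb2 were near 0 in KO replicate 3. In the Ctrl libraries of the whole series Mcpt4, Cma1 and Tpsb2 were at most 0.257, 2.99 and 3.83 counts. They thus met the filter on low values only through KO libraries, those of GFP-negative HSC among them. For these genes the filter favoured a higher KO level. Cpa3, by contrast, was 123 to 351 counts in Ctrl GFP-negative HSC and 285 to 1758 in Ctrl GFP-positive HSC.

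Across the 24 mast cell, basophil and eosinophil genes tested, 1 rose and 0 fell, 19 lay above 0, and the median was 0.92. It was 0.32 on the 12 LMPP libraries (14 genes), 1.52 on the 6 libraries (10 genes), 1.75 with a 5 ppm filter (18 genes) and 0.53 with a 2 ppm pseudocount. Of the 9 genes that lay higher without overlap, 4 had a KO library under 1 count, so their separation rests on values near 0. At least Mcpt4, Cma1, Tpsb2, Tph1 and Cyp11a1 met the filter only through KO libraries, so their part of these counts and medians favours KO. Tph1 was at most 0.228 counts in the Ctrl libraries of the series. Cyp11a1 was 12.5 and 14.9 counts in Ctrl replicates 1 and 2 of GFP-negative HSC and at most 6.89 in the other Ctrl libraries. The list's median by KO library was 0.16, 2.20 and 0.06, and without KO replicate 2 the median was 0.20, with 16 genes above 0 and 7 below. Without Ctrl replicate 2 it was 0.78. The 6 mast cell markers, Cpa3 among them, summed to 27 to 3092 counts in KO and 0.759 to 3.3 in Ctrl. In Ctrl HSC the same sum was 199 to 371 counts (GFP-negative) and 292 to 1758 (GFP-positive), so it was not particular to KO libraries. The part of these markers in the other differences was not tested, and KO replicate 2 was also the library with the highest mitochondrial share.

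**Figure D2:**
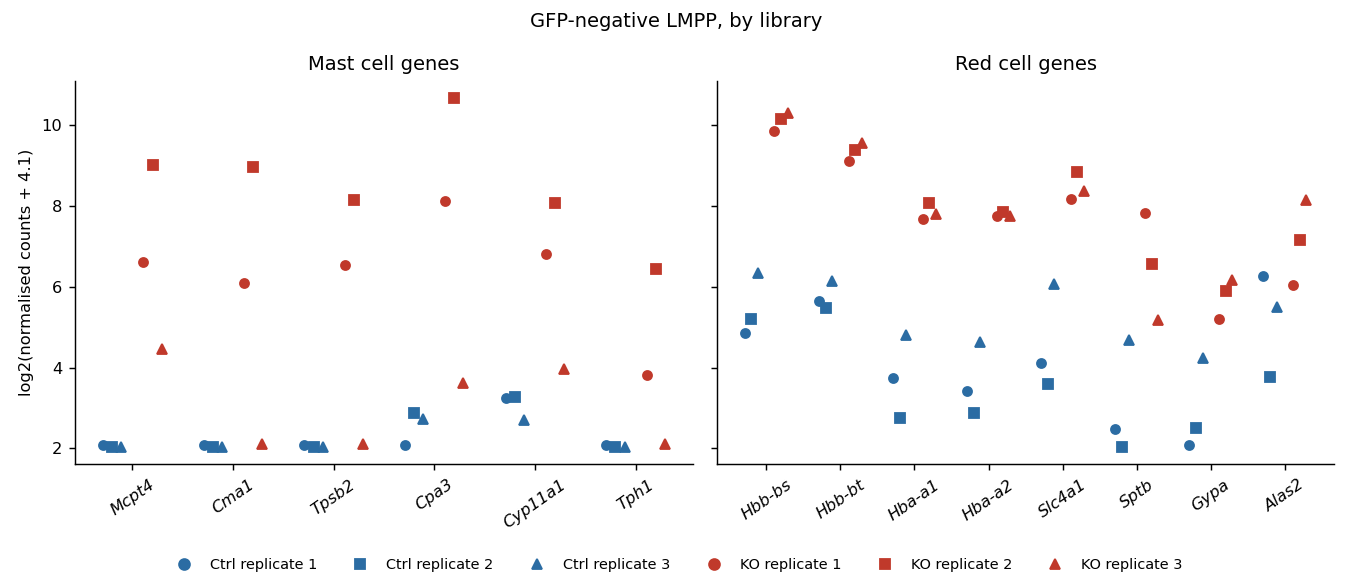
Level of 6 mast cell genes and 8 red cell genes in each of the 6 libraries (vertical axis, log2 of normalised counts + 4.1; a value of about 2 is a level near 0); blue is Ctrl, red is KO and marker shapes give the replicate. The mast cell genes are highest in KO replicate 2 and lowest of the KO libraries in replicate 3, while Hbb-bs lies between 922 and 1262 counts in all 3 KO libraries.

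Mcpt4 and Ctsg lie in a cluster of granule protease genes on chromosome 14, with starts 40.3 kb apart, and they changed in opposite directions. From Cma1 (chr14:55941451-55944675) to Gzmb (chr14:56258838-56262260) the deposited table holds 8 genes. Mcpt4 rose. Cma1 was high in KO replicates 1 and 2 and near 0 in KO replicate 3 and in Ctrl. Between Mcpt4 and Ctsg, Mcpt8, a basophil protease, was near 0 in KO and 0.122, 6.16 and 9.02 counts in Ctrl (-0.98, adjusted p = 1). Gzmb, granzyme B, was 25.2 counts in KO replicate 2 and near 0 in the other 5 libraries. Mcpt1, Mcpt2 and Cma2 stayed under 4 counts in all 6.

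Transcripts of the partners of TAL1 did not pass. Of 19 genes of the TAL1 complex, E proteins and Id proteins, 0 passed, the median was 0.03, and 3 lay lower without overlap and 0 higher. The 3 were Tal1 itself, Cbfa2t3, a corepressor of the complex known as ETO2, and Runx1. Cbfa2t3 was 713, 795 and 570 counts in KO against 1252, 1133 and 1280 in Ctrl (-0.83, adjusted p = 1), and Runx1 differed by -0.41. Lyl1, the closest relative of Tal1, was 860 counts in KO and 780 in Ctrl on average (0.17), and Lmo2 and Ldb1 differed by 0.02 and 0.03; the sign of each of these 3 depended on the scaling or on a single library. Gata2, the GATA factor of stem and mast cells, was 914, 1258 and 502 counts in KO against 319, 411 and 444 in Ctrl (1.10, adjusted p = 1), without overlap.

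Genes of stem cells tended to lie higher in KO, with 0 passing. Of 35 tested, 30 lay above 0, 11 lay higher and 2 lower without overlap, and the median was 0.49. At an unadjusted p under 0.05 (limma), 2 were higher and 0 lower. Hlf, a stem cell transcription factor, was 12774, 12234 and 10914 counts in KO against 7215, 5811 and 5890 in Ctrl (0.93 ± 0.40, adjusted p = 1). Mecom, which encodes EVI1, was 1283, 1375 and 1152 in KO against 664, 655 and 549 in Ctrl (1.02, adjusted p = 1). Both were separated clearly between genotypes, and in both the replicates of a group lay close together. On the 6 libraries alone Hlf and Mecom passed (limma), also with the replicate number as a block, and in no other setting. Pdzk1ip1, a membrane protein gene enriched in stem cells that lies near Tal1 (chr4:115088708-115093899, plus strand), was 193, 311 and 148 in KO against 36.9, 58.9 and 28 in Ctrl (2.28, adjusted p = 1), and Hoxa9 differed by 0.58 without overlap. Ly6a, which encodes the gate protein Sca1, was 1494, 1703 and 960 in KO against 764, 878 and 416 in Ctrl (1.04, adjusted p = 1). Cd34 and Ndn lay lower without overlap (-0.34 and -1.30). The stem cell median was 0.36 to 0.64 when any 1 of the 6 libraries was left out.

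Interferon response genes lay mostly above 0. Of 34 tested, 32 lay above 0, 12 lay higher and 0 lower without overlap, the median was 0.44, and 0 passed; 1 was higher at an unadjusted p under 0.05 (limma) and 0 lower. Ifit3, an interferon-induced antiviral gene, was 116, 110 and 72.3 counts in KO against 39.2, 44.3 and 3.11 in Ctrl (2.04, adjusted p = 1). Zbp1, a sensor of nucleic acids, was 265, 200 and 313 in KO against 166, 105 and 73.4 in Ctrl (1.20, adjusted p = 1). The list's median by library was 0.60, 0.43 and 0.43 in KO and 0.13, 0.19 and -0.30 in Ctrl. Ctrl replicate 3 was the lowest, and without it the median was 0.30, with 26 genes above 0 and 8 below. Ly6a, named above, is also induced by interferon.

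**Figure D3:**
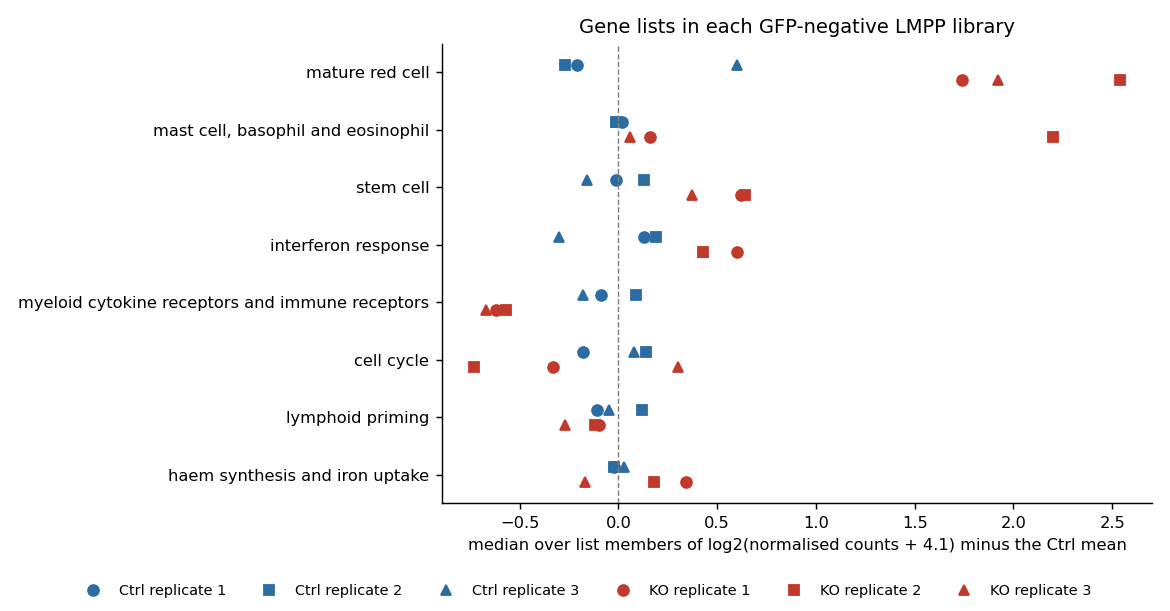
Median over the members of 8 gene lists in each library (horizontal axis, log2 of normalised counts + 4.1 minus the Ctrl mean of the gene); blue is Ctrl, red is KO and marker shapes give the replicate. The 3 KO libraries lie between -0.67 and -0.57 for myeloid receptors and between 0.37 and 0.64 for stem cell genes, whereas KO replicate 2 stands alone at 2.20 for mast cell genes.

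The other lists are given by their medians. Mitochondrially encoded genes had a median of 0.37, with KO replicate 2 at 0.71 and KO replicate 3 at -0.12, and cytosolic ribosomal protein genes had a median of -0.07 over 83 genes. Immediate early and stress genes (24 tested) had a median of -0.03, Notch receptors and targets (11 tested) 0.28, adhesion and homing genes (20 tested) -0.00, macrophage genes (14 tested) 0.20 and stroma and endothelium genes (13 tested) -0.04. The LSK gate and lineage surface list of 18 genes had a median of -0.11. Summed markers of B cells (2.67 to 9.96 counts in KO, 5.12 to 20.6 in Ctrl), T cells (139 to 367 and 135 to 192), NK cells (150 to 206 and 194 to 558) and stroma (5.21 to 8.35 and 5.24 to 18) overlapped between genotypes.

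**Figure D4:**
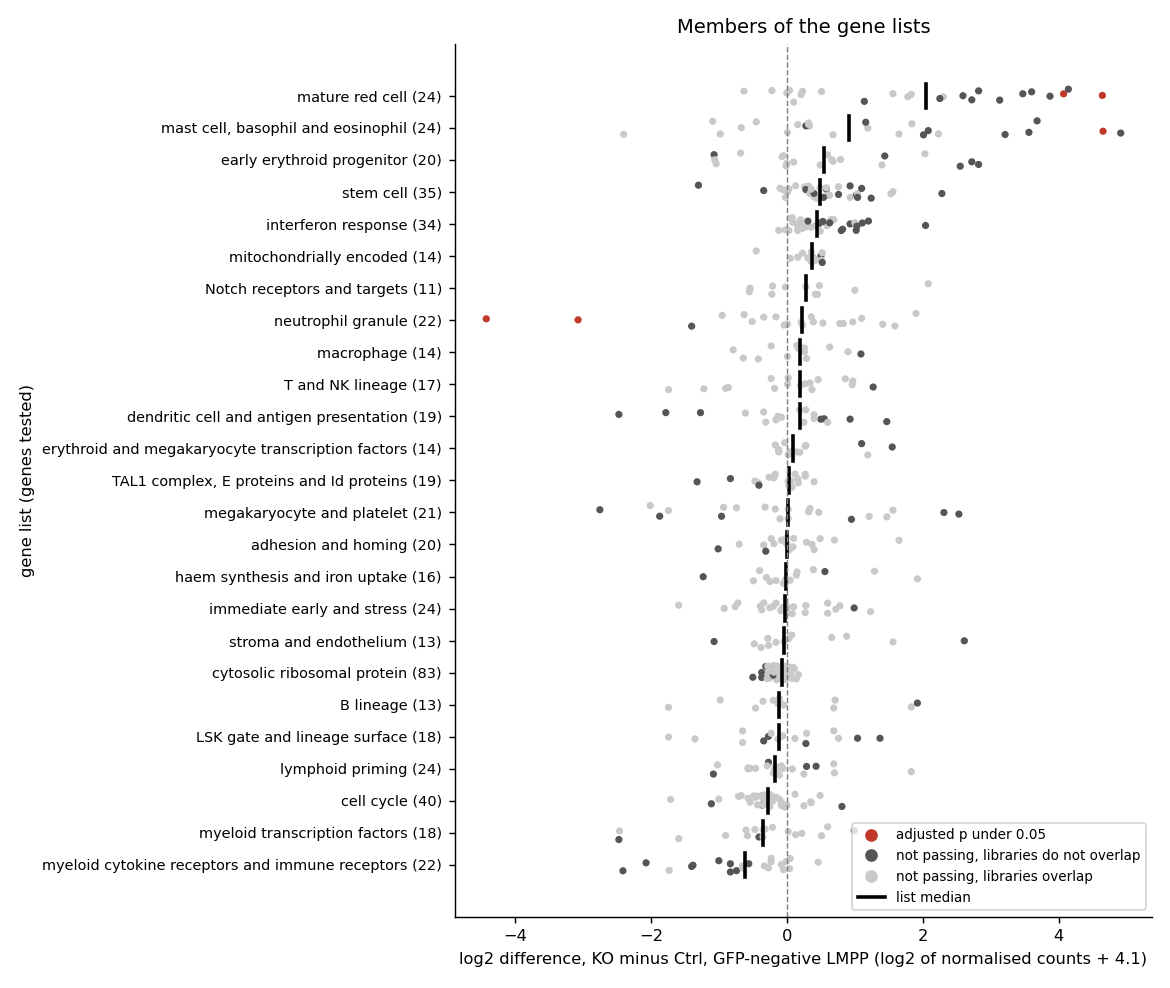
Log2 difference, KO minus Ctrl, of the tested members (points; 1 gene is not shown) of 25 gene lists (rows, with the number of genes tested), sorted by the list median (black bar); red points passed, dark grey points did not pass but had libraries that do not overlap, and light grey points overlapped. The red points are Ctsg, Mpo, Hba-a1, Hbb-bs and Mcpt4, and the medians run from -0.61 for myeloid receptors to 2.04 for mature red cell genes.

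Other genes without overlap and with the smallest p-values did not pass and are given as values. Btnl10, a butyrophilin-like gene, was 58.9, 159 and 99.6 counts in KO against 2.77, 0 and 8.36 in Ctrl (3.86, adjusted p = 0.0532). Trib1, a pseudokinase that promotes the breakdown of C/EBP alpha, was 40, 75.8 and 115 in KO against 2.77, 9.09 and 0.501 in Ctrl (3.33, adjusted p = 0.0744). Tent5c, a poly(A) polymerase, was 197, 58.3 and 143 against 0.128, 10.8 and 2.46 (4.04, adjusted p = 0.202). None of the 3 overlapped between genotypes. On the lower side, Kcng1, a potassium channel subunit, was 3.88, 13.7 and 36.9 in KO against 199, 285 and 81.9 in Ctrl (-3.25, adjusted p = 0.127). Ubash3a, a regulator of T cell receptor signalling, was 56.6, 46.8 and 3.45 against 203, 123 and 340 (-2.87, adjusted p = 0.23). Both were free of overlap, as were Itgal, an integrin chain (-1.01), and Arhgap19, a GTPase activator (-1.65), each with an adjusted p of 0.723. Gm20429, a processed transcript on chr17:37246961-37263064 (plus strand) that is named here because it passed, was 19.5, 34.2 and 46.6 counts in KO against 0.0893, 4.61 and 0 in Ctrl (2.75 ± 0.42, adjusted p = 0.00723). It was under 5 counts in the other 21 libraries of the series and met the filter on low values only through the KO libraries in which it was high. The filter thus favoured a higher KO level, and on the 6 libraries alone its adjusted p was 0.253 (limma).

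The same contrast was read in the other 3 sorted populations to see where GFP-negative LMPP differed. KO replicate 3 of GFP-positive LMPP and Ctrl replicate 2 of GFP-positive HSC stood apart there, with 11684 and 11982 genes above 1 count against at least 13583 in the rest. At an adjusted p under 0.05 there were 26 genes in GFP-negative HSC (0.16%), 7 in GFP-positive LMPP (0.0432%) and 70 in GFP-positive HSC (0.432%). Hbb-bs was higher in KO in all 4 populations, by 4.64 in GFP-negative LMPP, 4.40 in GFP-negative HSC (CD135-negative LSK), 5.58 in GFP-positive LMPP and 4.78 in GFP-positive HSC, with adjusted p-values of 0.0226, 0.019, 0.00527 and 0.0113 (limma). Without both libraries that stood apart the last 2 values were 4.46 and 3.79. Mcpt4 differed by 6.18 in GFP-negative HSC (adjusted p = 0.00139), but by 0.05 in GFP-positive LMPP, where both genotypes were under 1 count.

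Mpo differed by -2.10 in GFP-negative HSC (adjusted p = 0.0871), -0.94 in GFP-positive LMPP (adjusted p = 0.626) and -1.25 in GFP-positive HSC (adjusted p = 0.227). Ctsg differed by -1.50, -1.73 and -0.86 in these populations. Its KO level in the first 2 was 94 to 156 and 4.91 to 152 counts, against 0.248 to 10.2 in GFP-negative LMPP. Without the libraries that stood apart, the GFP-positive LMPP differences were -0.29 for Mpo and -0.42 for Ctsg, and the GFP-positive HSC differences were -1.47 (adjusted p = 0.0881) and -1.71 (adjusted p = 0.105). Atp8b4 differed by -1.51 (adjusted p = 0.0798), -0.17 (adjusted p = 0.909) and -0.37 (adjusted p = 0.657). Hlf differed by 0.93 in GFP-negative LMPP, -0.72 in GFP-negative HSC, 0.92 in GFP-positive LMPP and 1.02 in GFP-positive HSC, and Cdk6 by -1.11, 0.25, -0.53 and 0.31 (Hlf 1.10 and Cdk6 -0.21 in GFP-positive LMPP, and Hlf 0.28 and Cdk6 0.37 in GFP-positive HSC, without those libraries). The stem cell list's median was 0.49 in GFP-negative LMPP, -0.50 in GFP-negative HSC, 0.06 in GFP-positive LMPP and 0.27 in GFP-positive HSC. The myeloid receptor median was -0.61, -0.15, -0.04 and -0.69 in the same order, and the median of all genes in GFP-positive HSC was 0.19.

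The difference between populations in the effect of genotype was tested directly, and no gene passed. Against GFP-negative HSC, 0 of 16215 genes passed (limma) and 384 had an unadjusted p under 0.05 (2.37%); against GFP-positive LMPP, 0 passed and 531 did (3.27%). The median difference over all genes was -0.03 and 0.11. Relative to GFP-positive LMPP, the effect in GFP-negative LMPP differed by -2.02 for Atp8b4 (limma adjusted p = 0.978), for Mpo by -2.14 (adjusted p = 0.978), and for Mcpt4 by 4.60 (adjusted p = 0.978). Ctsg gave -2.69 (adjusted p = 0.978), and without the libraries that stood apart -4.03 ± 0.74 (adjusted p = 0.0861). Against GFP-negative HSC, Cdk6 gave -1.36 (adjusted p = 0.653) and Hlf 1.65 (adjusted p = 1). None of the 9 genes is therefore shown to differ in its response between these populations.

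**Figure D5:**
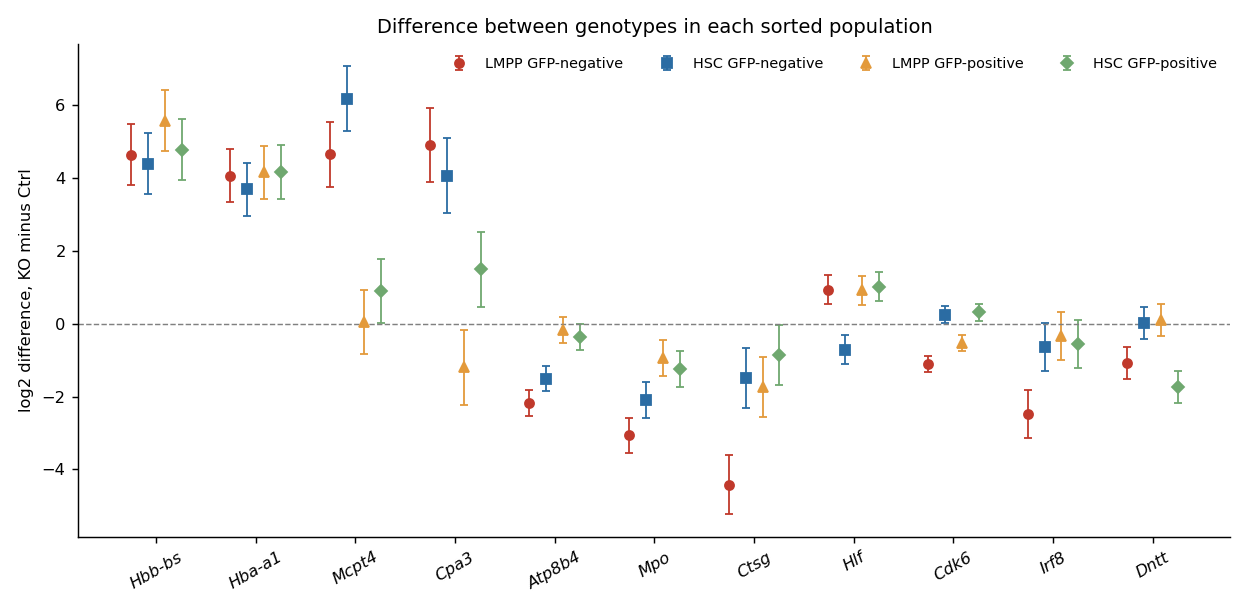
Log2 difference, KO minus Ctrl, with SE bars, of 11 genes (horizontal axis) in the 4 sorted populations (colours and marker shapes). The globin genes lie at similar heights in all 4 populations, whereas Atp8b4 is at -2.18 in GFP-negative LMPP and -0.17 in GFP-positive LMPP.

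The calls rest on all 6 libraries. Ctsg, Hba-a1, Hbb-bs and Gm11505 passed in none of the 6 fits that each left out 1 library, although Ctsg stayed between -4.96 and -4.11, Hbb-bs between 4.33 and 5.07, and Hba-a1 between 3.56 and 4.59. Mpo passed when Ctrl replicate 1 was left out (limma adjusted p = 0.0281) or KO replicate 3 (0.0167) and had an adjusted p of 0.057 to 0.108 without any other. Atp8b4 passed without those same libraries (0.0281 and 0.0103) and had 0.0535 to 0.108 otherwise. Mcpt4 passed only without KO replicate 3 (0.0067; 0.142 to 0.295 otherwise), and without KO replicate 2 its difference was 3.49. Gm20429 passed without Ctrl replicate 2 (0.00569), had 0.0592 and 0.0535 without Ctrl replicates 1 and 3, and was below the filter on low values when any 1 KO replicate was left out.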

How the data were processed

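Genes and lists were chosen with earlier results of these data known. Trimmomatic 0.33, HTSeq 0.6.1, edgeR and mm10 are named per the submitters' processing notes; no source used here gives the aligner or the normalisation function. The authors deposited 1 signal value per gene and library, a normalised count, for 17149 genes. Since 0.59% of the non-zero values fell within 0.001 of a whole number, no count model was used. GENCODE M21 (GRCm38) named 16985 of the genes.

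Values were taken as log2(value + 4.1), where 4.1 is 0.5 ppm of the mean library total, which understates changes of low genes. A gene was tested if 3 or more of the 24 libraries held 1 ppm or more of it, which left 16215. Means of all 8 groups, with 1 shared spread, were fitted in limma 3.58.1 (R 4.3.3; empirical Bayes with trend; residual df 16, prior df 9.53), and Benjamini-Hochberg adjustment was made per comparison, with a threshold of 0.05. Tal1 and Rag2 also had exact two-sided permutation tests. The fit was tested on simulated data.

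Genes named were those that passed without overlap and with at least 5 ppm in the higher group, filled to 10 in each direction by the smallest p among genes meeting the other conditions, up to 6 members of each list with the smallest p, and a set always read; predicted genes are counted only. Of the genes that passed, 1 is counted but not reported here. Camp, Cd34, Cma2, Gm11505, Gm20429, Gp9, Itga2b, Ltf, Mcpt1, Mcpt2, Mcpt8, Ngp, S100a8 and S100a9 were named after their values were seen. Alternatives changed the filter, the pseudocount, the scaling, the libraries fitted, weights and blocks. Promoters were from RefSeq (GRCm38.p6).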

Additional observations from a re-analysis of the deposited data

How the results depend on the processing

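The number of genes that passed was 9, and 15 with the replicate number as a block (9 higher, 6 lower; all 9 among them). Whether the numbers pair the samples is not stated in the labels. The deviations of same-numbered KO and Ctrl libraries correlated at 0.036, 0.005 and 0.058. KO replicates 1 and 3 correlated best with their own number, and KO replicate 2 with Ctrl replicate 1 (0.013). Correlations this near 0 cannot decide whether the samples were paired. With other settings (count; higher; lower) it was 14 (7; 7) with quantile normalisation, 24 (11; 13) on the 6 libraries alone, 1 (0; 1) on the 12 LMPP libraries, 44 (22; 22) with array weights, 19 (11; 8) when the 2 GFP-positive libraries that stood apart were left out, and 2 higher with a 5 ppm filter. Added after seeing the data were the 6 libraries with the replicate block, with 55 (22; 33), and sex as a covariate, with 14 (8; 6). Leaving out 1 library gave 0 to 5 genes (0 to 3 higher, 0 to 2 lower). Interaction counts of 0 became 1 (2 ppm pseudocount), 14 (array weights) and 0 to 2 (1 library left out) against GFP-negative HSC, and 1 (total scaling), 6 (array weights) and 0 to 1 against GFP-positive LMPP. Tal1 passed at -1.32 on the 6 libraries, without and with the replicate block.

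The sign reversed for Lyl1 (-0.04 without Ctrl replicate 2; -0.04 to 0.43 over the fits without 1 library), Lmo2 (-0.10 with total scaling, -0.11 without Ctrl replicate 1, -0.09 without KO replicate 2, up to 0.15 without KO replicate 3), Ldb1 (-0.10 with total scaling and without KO replicate 1, up to 0.11 without KO replicate 3) and Klf1 (0.02 with the 2 ppm pseudocount, 0.10 with array weights, 0.07 without Ctrl replicate 3, 0.60 without KO replicate 3, down to -0.64 without KO replicate 2). The cause was not tested. The 9 genes kept their direction in all settings in which they were fitted, but calls were lost. On the 6 libraries alone Mcpt4 (adjusted p = 0.051, limma) and Gm20429 (0.253) did not pass, nor did they with quantile normalisation (0.0574 and 0.124). On the 12 LMPP libraries Atp8b4 passed, and Mpo (0.0617), Gm11505 (0.118), Hbb-bs, Hba-a1 and Mcpt4 (0.129 each), Gm20429 (0.162) and Ctsg (0.343) did not. Hba-a1 (0.0829) and Hbb-bs (0.167) did not pass with a pseudocount of 0.1 ppm, nor Ctsg (0.16) and Mcpt4 (0.258) with 2 ppm, nor Mcpt4 (0.0555) with the 5 ppm filter, which left Gm20429 out. Same-numbered libraries match in sex, and Btnl10, Cdk6, Cpa3, Hba-a2 and Slc4a1 passed both with the replicate block and with sex as a covariate, and Hbb-bt with the block. The mature red cell median was 2.99 with a pseudocount of 0.1 ppm and 1.07 with 2 ppm, and the myeloid receptor median was -0.37 with 2 ppm. Depth limits genes near 0, where a fold cannot be given, and total scaling moved the median of all genes to -0.12.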
